A study of Mus musculus with 9 samples.

Results

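The EGF receptor and 6 of its ligands were followed in mouse peritoneal macrophages that had met colon carcinoma cells: amphiregulin (Areg), epiregulin (Ereg), heparin-binding EGF-like growth factor (Hbegf), transforming growth factor alpha (Tgfa), betacellulin (Btc), epidermal growth factor (Egf) and the receptor itself (Egfr). These 7 of the 23632 named genes were taken by gene name and were represented by 9 of the 55681 probes, with 3 probes for Egfr and 1 for each ligand. Total RNA of male mice was hybridised to 9 one-colour Agilent arrays, 3 per group, after sorting of CD45+F4/80+ cells by flow cytometry. Group Ctrl was cultured alone in regular medium for 24 h. Group T shared a Transwell, a well split by a porous membrane, with CT-26 cells for 24 h and is labelled as lower chamber. Group M holds the migratory macrophages of such a co-culture, taken from the upper chamber, and no label used here states its duration. CT-26 is a mouse colon carcinoma line, so the probes cannot tell its transcripts from those of the macrophages. One label field calls the T cells migratory, against the titles and the protocol, and the groups follow the titles. No label says that arrays of a group came from separate animals or cultures, so p-values rest on the spread among these arrays alone, and that spread may be technical.

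The EGF receptor is a receptor tyrosine kinase of the ErbB family. Its ligands are made as membrane-anchored precursors that metalloproteases such as Adam17 and Adam10 cut free, and the occupied receptor signals through Ras and the kinases Mek and Erk to a set of early transcription factor genes and to its own inhibitors. In mouse mammary tumours, macrophages are known to pass EGF to carcinoma cells, which answer with a macrophage growth factor. Amphiregulin and epiregulin are low-affinity ligands that leukocytes can make in inflamed tissue, and Hbegf also binds ErbB4.

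In these cells Areg and Hbegf behaved differently from each other. Areg was lowest in Ctrl, higher in T and highest in M. Hbegf was high in T and close to Ctrl in M. Egf was lower in T than in either other group, no difference in Egfr passed the test with the probe that was bright on every array, and the probes of Ereg and Btc were not well above background on any array.

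The sequence through which Areg was read, and the stretch before its start, are shown because Areg carried the largest differences among the members. The array's Areg probe lies at chr5:91570090-91570149 on the plus strand of mm9, the build of the array files, and the Egfr probe that stands for the gene lies at chr11:16783556-16783615 on the plus strand of mm9. Each is 60 bases and is printed in lower case because no part of it is singled out.
Areg probe: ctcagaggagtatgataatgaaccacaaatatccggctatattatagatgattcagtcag
Egfr probe: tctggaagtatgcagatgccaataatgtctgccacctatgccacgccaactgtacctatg
The 250 bases before the Areg start, at chr5:91139349-91139598 on the plus strand of GRCm38.p6, were taken from RefSeq. Capitals mark a full cyclic AMP response element (CRE), TGACGTCA, and a TATA box, TATAAAA.
Areg promoter: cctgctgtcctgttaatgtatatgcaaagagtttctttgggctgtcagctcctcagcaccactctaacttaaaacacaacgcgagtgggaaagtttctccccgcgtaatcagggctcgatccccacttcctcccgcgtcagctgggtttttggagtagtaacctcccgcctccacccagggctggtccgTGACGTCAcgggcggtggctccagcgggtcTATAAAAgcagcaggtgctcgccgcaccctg
The CRE begins 61 bases before the start and the TATA box 31 bases before it. The CRE was present in 1.55% of the 32851 windows of the same length in the RefSeq table, and in none of the windows found for Tgfa, Btc, Egf and Egfr. Both strands were also searched for an AP-1 motif (TGANTCA, in 6.75% of windows) and an EGR motif (GCGTGGGCG, in 0.536%). None of the windows of these 5 members, Areg included, held either. Promoters of Ereg and Hbegf are not shown. On chromosome 5 of that assembly Epgn (epigen), Ereg, Areg and Btc follow one another with no other protein-coding gene between them.

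Some facts of the arrays bear on every value. Probes well above background made up between 69.98% and 78.7% on Ctrl arrays, 66.2% and 72.3% on T arrays and 60.5% and 66.6% on M arrays, and no spot was saturated. All Ctrl and M arrays were on 1 slide and all T arrays on another, so that T and the slide cannot be told apart, while M against Ctrl lies within 1 slide. Levels are log2 signal minus the 75th percentile of the array, so that 0 is that percentile, and a level is compared between groups of 1 probe only. Scaling to the array median instead moved the median difference of all genes from -0.14 to 0.28 for T against Ctrl, from -0.09 to 0.21 for M against Ctrl and from 0.11 to -0.01 for M against T, and raised the share of calls that were higher in T than in Ctrl from 39.3% to 66.1% (52.6% with quantile normalization). For M against Ctrl that share went from 52.4% to 74.5% (66.2% with quantile normalization), and for M against T from 57.6% to 44.8%.

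Areg was read at signals of 30.1, 53.0 and 42.8 on Ctrl1, Ctrl2 and Ctrl3. On T1, T2 and T3 the signals were 424, 829 and 639. On M1, M2 and M3 they were 2315, 1981 and 2337. The 3 groups did not overlap, and 2 of 3 Ctrl arrays, 3 of 3 T arrays and 3 of 3 M arrays read it well above background. As log2 levels, Ctrl stood at -5.96 ± 0.24 (SD, n = 3), T at -2.29 ± 0.13 and M at -0.46 ± 0.19. In bulk RNA, more cells that carry a transcript and more of it per cell cannot be told apart.

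**Figure D1:**
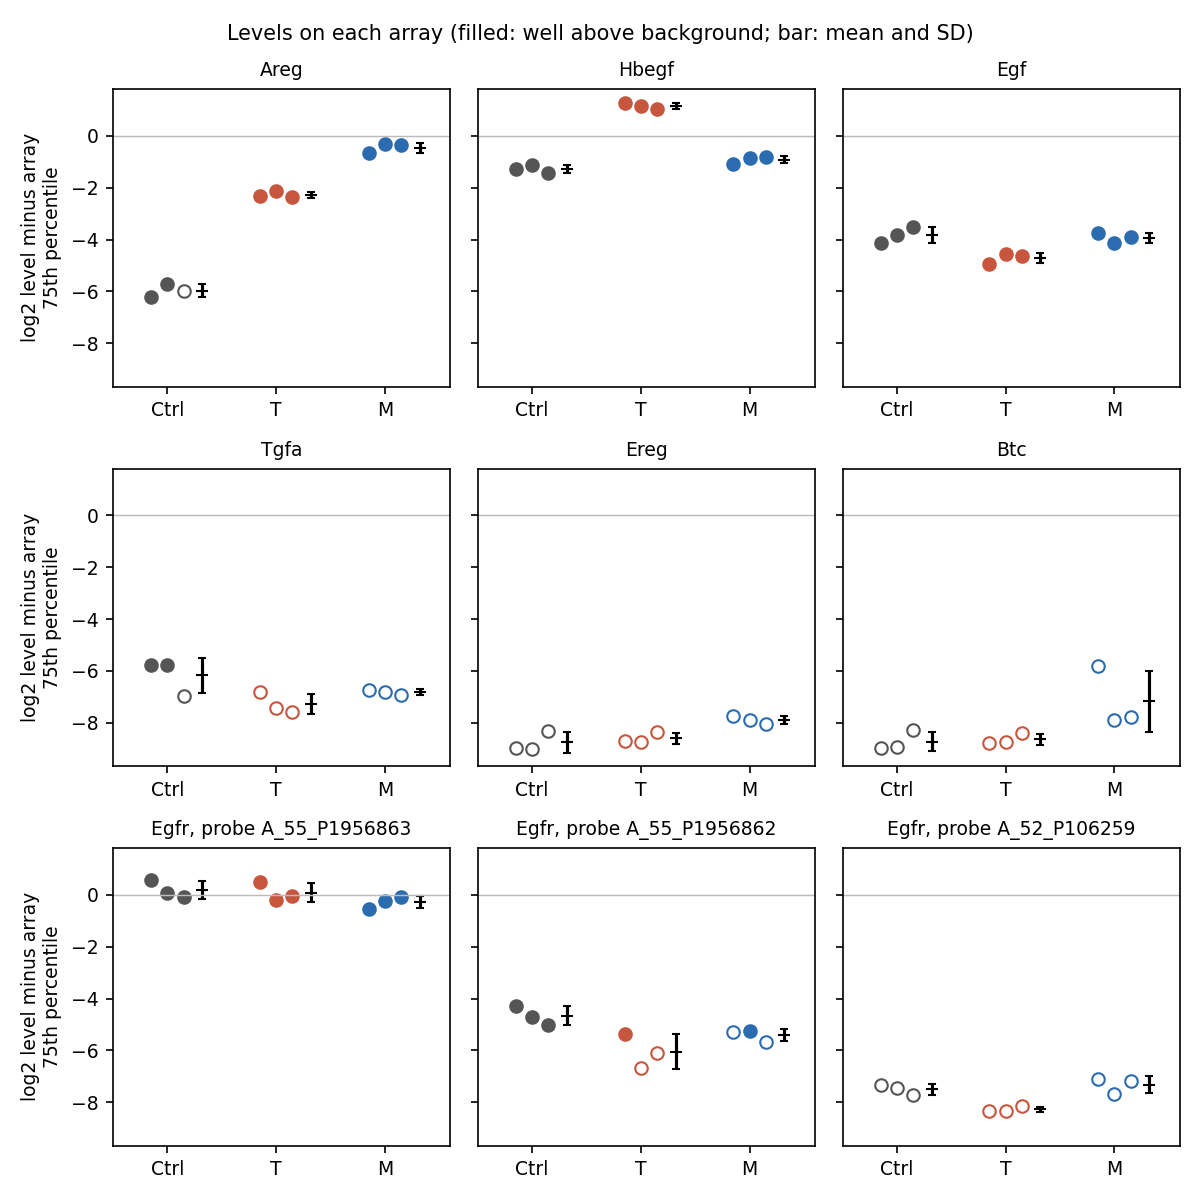
Log2 level relative to the array's 75th percentile (vertical axis) of each of the 9 probes on the 9 arrays, by group; filled points are well above background and the black bar is the mean and SD of 3 arrays. Areg steps up from Ctrl (-5.96) to T (-2.29) and M (-0.46), Hbegf is high in T (1.14), and Ereg and Btc have open points on every array.

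In T, Areg was 3.68 ± 0.19 log2 units (SE) above Ctrl, a 12.8-fold rise with a 95% interval of 9.61 to 17.0 (limma, adjusted p = 1.09e-06). In M it was 5.50 ± 0.19 above Ctrl, a 45.3-fold rise with an interval of 34.0 to 60.3 (adjusted p = 7.36e-08). The direct test put M 1.82 ± 0.19 above T, or 3.54-fold with an interval of 2.66 to 4.71 (adjusted p = 8.41e-05). With normexp background correction the differences were smaller than these intervals, 2.42 log2 units in T and 4.34 in M against Ctrl, with adjusted p of 1.15e-06 and 6.18e-09. Ctrl3 was the array whose Areg signal was not well above background. Areg was tested only through T and M, where it was high, and its Ctrl signals lay near background. The folds, intervals and p-values against Ctrl are set against that signal, so these folds are no exact sizes. M against T does not rest on it. Counting Areg itself, 76 of 18096 tested genes had a rise at least this large in T against Ctrl, 34 in M against Ctrl and 312 in M against T. Genes called higher in all 3 comparisons, as Areg was, made up 1.28% of those tested (231 genes). With the deposited value table in place of the scanner files, the T to Ctrl difference was 4.90 (adjusted p = 0.00386), and the M to T difference was 0.60 and missed the threshold (adjusted p = 0.71). The T2 column of that table, which equals none of the scanner files, held an Areg level of 1.54, against -2.13 in the T2 scanner file, and without that column the differences were 3.60 (adjusted p = 2.22e-05) and 1.90 (adjusted p = 0.000537).

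Hbegf, a ligand that also tethers cells as its uncut membrane form, was read at 892, 1268 and 979 on the Ctrl arrays. Its signals were 5182, 7965 and 6804 on the T arrays and 1754, 1354 and 1715 on the M arrays. Every T array was above every other array, and the probe was well above background on all 9 arrays. Group levels were -1.30 ± 0.16 in Ctrl, 1.14 ± 0.12 in T and -0.93 ± 0.14 in M (SD, n = 3). Hbegf rose by 2.45 ± 0.17 log2 units in T, 5.45-fold with a 95% interval of 4.22 to 7.03 (limma, adjusted p = 6.23e-06). Against T, M fell by 2.07 ± 0.17 (adjusted p = 1.79e-05). M stood 0.37 ± 0.17 above Ctrl with an interval of 0.0054 to 0.74, or 1.30-fold, which missed the threshold (adjusted p = 0.119), although the M arrays lay above the Ctrl arrays. That difference passed the test with quantile normalization (0.49, adjusted p = 0.0277), median scaling (0.67, adjusted p = 0.0264) and normexp background correction (0.53, adjusted p = 0.0445). Hbegf's sequence of calls, higher in T, not called in M against Ctrl and lower in M than in T, was shared by 5.56% of tested genes.

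Egf, the ligand that gave the receptor its name, was read at 127, 198 and 235 on Ctrl, 70.2, 154 and 135 on T, and 277, 140 and 203 on M. All 9 arrays were well above background. After scaling, the levels were -4.12, -3.82 and -3.52 on Ctrl, -4.93, -4.56 and -4.62 on T and -3.74, -4.14 and -3.91 on M. On that scale the T arrays lay below all others, while Ctrl and M overlapped. From Ctrl to T, Egf fell by 0.89 ± 0.21 log2 units (limma, adjusted p = 0.00711), and it was 0.78 ± 0.21 higher in M than in T (adjusted p = 0.0201). M against Ctrl gave -0.11 ± 0.21 with a 95% interval of -0.57 to 0.35 (adjusted p = 0.705). Neither call held under quantile normalization (T against Ctrl -0.41, adjusted p = 0.281; M against T 0.61, adjusted p = 0.154) or median scaling (-0.47, adjusted p = 0.204; 0.66, adjusted p = 0.136). The M to T call was also lost when T1, T3, M1 or M3 was left out, with adjusted p from 0.055 to 0.0701.

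Tgfa, a ligand of epithelia and of activated macrophages, passed the background threshold on 2 of 3 Ctrl arrays and on no T or M array. Its signals were 40.1, 50.9 and 21.8 on Ctrl, 19.0, 21.4 and 17.4 on T and 35.2, 22.3 and 25.1 on M. It was not tested, since no group had it above background throughout. When Ctrl3 was left out it passed the filter through Ctrl1 and Ctrl2 alone, the arrays where it was high, so no difference is given for it.

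Ereg and Btc, which sit on either side of Areg on chromosome 5, gave no usable level. Ereg signals were 4.5 to 17.6 over the 9 arrays. Btc signals were 4.4 to 13.8 on 8 arrays and 66.3 on M1, the array with the highest negative control signal (59.2, against 24.2 to 45.8 on the others). Neither probe was well above background on any array, which bounds their levels and does not show that the transcripts were absent. The remaining ligand gene of that row, Epgn, was above background on 3 of 3 Ctrl, 1 of 3 T and 1 of 3 M arrays, and so was tested only because of Ctrl, the group where it was highest. The fitted T to Ctrl difference of -1.45 ± 0.42 (limma, adjusted p = 0.0189) is set mostly against signal at background and is no measured size. Its call was lost without Ctrl1, Ctrl2 or T3 (adjusted p from 0.0502 to 0.0668), with quantile normalization and with the deposited value table.

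Egfr was read by 3 probes that lie in order along the gene, the middle one 3616 bases after the first and the last 26643 bases after the middle one. The first (A_55_P1956863) was well above background on 9 of 9 arrays, the second (A_55_P1956862) on 5 of 9 and the third (A_52_P106259) on 0 of 9. The array assigns the first 2 probes to the same transcript, from bases 2099 and 2188 of it, and the third to another. In Ctrl the first read 115% of the 75th percentile and the second 4.02%. The bright signal is therefore no sure level of that transcript, and why the 2 probes differ was not tested. Signals of the first probe were 3247, 2903 and 2486 on Ctrl, 3019, 3144 and 3162 on T and 2550, 2076 and 2845 on M, and the scaled levels of the 3 groups overlapped. By that probe Egfr differed by -0.10 ± 0.25 log2 units between T and Ctrl (95% interval -0.65 to 0.45, adjusted p = 0.772). M against Ctrl gave -0.46 ± 0.25 (interval -1.02 to 0.09, adjusted p = 0.181), and M against T gave -0.37 ± 0.25 (interval -0.92 to 0.18, adjusted p = 0.314). With 3 arrays a group, changes of a size within these intervals are not excluded.

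The second Egfr probe was near background outside Ctrl. Its signals were 113, 108 and 82.8 on Ctrl, 52.6, 35.3 and 48.7 on T and 95.4, 65.8 and 59.4 on M. It was above background on 3 of 3 Ctrl, 1 of 3 T and 1 of 3 M arrays, and so entered a fit of all 39944 probes above background only because of Ctrl, where it was highest. The T to Ctrl difference fitted there, -1.38 ± 0.33 log2 units (limma, adjusted p = 0.00829), is set mostly against signal at background and is no measured size. M against Ctrl gave -0.73 (adjusted p = 0.125) and M against T 0.64 (adjusted p = 0.188). With the mean of the tested Egfr probes T against Ctrl was -0.74 (adjusted p = 0.0456). The sign of the first probe's T to Ctrl difference turned with median scaling (0.33).

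**Figure D2:**
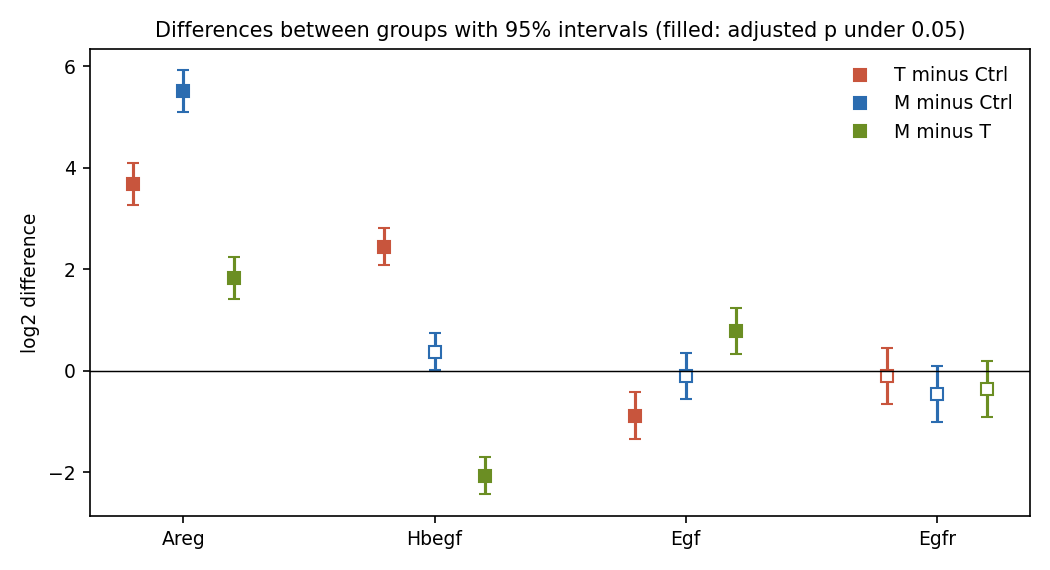
Log2 difference (vertical axis) between groups of 3 arrays for the 4 tested members, with 95% intervals of the limma fit; filled squares have an adjusted p under 0.05. Areg lies above 0 in all 3 comparisons, Hbegf is up in T (2.45) and down in M against T (-2.07), and the intervals of Egfr include 0.

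Of the 4 tested members, 2 rose in T against Ctrl, where 17.6% of the 18096 genes rose, and 1 fell, where 27.1% fell. In M against Ctrl 1 of 4 rose (12.2% of all genes) and 0 fell (11.1% of all genes; also 0 by limma at an unadjusted p under 0.05). In M against T 2 rose (14.7% of all genes) and 1 fell (10.8% of all genes). In either direction, 3 of 4 were called in T against Ctrl (44.7% of all genes), 1 of 4 in M against Ctrl (23.4%) and 3 of 4 in M against T (25.5%). No overlap between the arrays was seen for 3 of 4 in T against Ctrl (53.3% of all genes), 2 of 4 in M against Ctrl (36.2%) and 3 of 4 in M against T (48.3%). The shares of all genes rest on single arrays in part: leaving out 1 array moved the 2017 genes lower in M against Ctrl to between 498 (without M3) and 4324 (without Ctrl3). With 4 genes tested these counts are no result about the family. The comparisons of T and M with Ctrl share the Ctrl arrays.

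Other members of the ErbB family were measured next to them, and 5 of 8 were tested. Erbb3, a receptor with little kinase activity of its own, rose in T by 1.24 ± 0.18 (limma, adjusted p = 0.000754). Nrg4, a neuregulin that binds ErbB4, rose in M by 1.31 ± 0.21 against Ctrl (adjusted p = 0.00213) and by 1.52 ± 0.21 against T (adjusted p = 0.000652). Nrg2, another neuregulin, fell by 1.40 ± 0.22 in T (adjusted p = 0.00112). Erbb2, the receptor that binds no ligand, fell by 1.92 ± 0.53 in T (adjusted p = 0.0154), but its Ctrl levels were spread over -2.08, -2.94 and -4.67 and the call was lost without Ctrl2, T2 or T3 (adjusted p from 0.0501 to 0.0546) and with the value table without its T2 column. In all, 1 rose and 3 fell in T against Ctrl, where 17.6% of all genes rose and 27.1% fell. In M against Ctrl 1 rose and 2 fell (12.2% and 11.1% of all genes), and in M against T 1 rose and 1 fell (14.7% and 10.8%). Epgn is counted among the falls in T and in the median, although it was tested only because of Ctrl. Leaving out 1 array at a time moved the falls in T to between 1 and 5 and the falls in M against Ctrl to between 0 and 3, with the most without Ctrl3, when 7 genes were tested. The genes added then, Nrg1 and Nrg3, were above background on no T or M array. From T to M it gave 1 to 3 rises and 0 to 1 falls. The median difference of the 5 genes was -1.40, -0.41 and 0.65, beside -0.14, -0.09 and 0.11 for all genes.

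All 13 genes that act in the release of the ligands were tested, and 12 to 13 were above background on an array. In T 4 rose and 4 fell against Ctrl (17.6% and 27.1% of all genes), with a median of -0.13 beside -0.14 for all genes. Timp3, an inhibitor of Adam17, fell by 2.10 ± 0.24 (limma, adjusted p = 0.00017), with 2 of 3 T arrays above background, and the metalloproteases Adam12 and Adam19 fell by 1.87 ± 0.48 (adjusted p = 0.0108) and 1.35 ± 0.15 (adjusted p = 0.000169). The Adam19 call was lost with the mean of its probes. Ctrl levels of Adam12 were spread over -1.18, -2.15 and -3.33. In M against T, Timp3 rose by 1.74 ± 0.24 (adjusted p = 0.000618) and Adam19 by 1.49 ± 0.15 (adjusted p = 9.31e-05), the other 2 calls being falls. In M against Ctrl, where 12.2% of all genes rose and 11.1% fell, 0 rose by limma (1 at an unadjusted p under 0.05) and 3 fell. Those were Adam10, the main sheddase of Egf and Btc, at -1.11 ± 0.19 (adjusted p = 0.00293), Adam12, and Adam17, the main sheddase of Areg and Hbegf, at -0.61 ± 0.18 (adjusted p = 0.0383). Adam10 stayed called under each alternative in which M and Ctrl were compared, while Adam17 was lost without Ctrl1, Ctrl2, T2, T3, M1 or M3 (adjusted p from 0.0606 to 0.131). It was also lost with median scaling, normexp, the replicate block, a fit of only the groups compared, the value table with or without its T2 column, and without M1 and M3 together, in all 13 of 23 alternatives. Under quantile normalization 3 of the 13 genes rose in M against Ctrl and under median scaling 2. Without Ctrl1, Ctrl2, T2, T3, M1 or M3 in turn 1 gene fell there, and without Ctrl3 4 fell and 2 rose. The rises in T numbered 2 without Ctrl2 or T3, and the falls from T to M 1 without T1, T2, T3, M2 or M3.

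The relay from receptor to Erk had 27 of 29 genes tested. In T 6 rose and 0 fell by limma (1 at an unadjusted p under 0.05), where 17.6% of all genes rose and 27.1% fell. The median was 0.34, beside -0.14 for all genes. Only 1 rose without T2 or T3, 2 without T1 or Ctrl1, 3 without Ctrl2 and 9 without Ctrl3. In M against Ctrl 3 rose and 1 fell (12.2% and 11.1% of all genes), with a median of 0.06 beside -0.09 for all genes. Map2k1, which encodes Mek1, fell there by 0.85 ± 0.17 (limma, adjusted p = 0.0076), a call lost with median scaling, the deposited value table and without M1 and M3 together. From T to M, Map2k1 fell by 1.43 ± 0.17 (adjusted p = 0.000231). The rises in M against Ctrl numbered 1 without Ctrl1, Ctrl2, M1 or M3 and 5 without Ctrl3, when 3 fell. Median scaling gave 11 rises in T and 5 in M against Ctrl.

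The inhibitors that the pathway induces against itself are phosphatases, adaptors and ligases that end the signal. Of 23 tested genes 11 rose and 3 fell in T against Ctrl (17.6% and 27.1% of all genes), with a median of 0.59. Dusp5, an Erk phosphatase, stood at -2.03, -2.17 and -1.54 on Ctrl, 0.67, 1.09 and 1.04 on T and -0.46, -0.40 and -0.28 on M, with no overlap. It rose by 2.85 ± 0.21 in T (limma, adjusted p = 1.01e-05) and by 1.54 ± 0.21 in M (adjusted p = 0.000642), and fell by 1.31 ± 0.21 from T to M (adjusted p = 0.00138). Errfi1, which blocks the receptor's kinase directly, rose by 1.85 ± 0.26 in T (adjusted p = 0.000613) and fell by 1.88 ± 0.26 from T to M (adjusted p = 0.000648). Spry1, a Sprouty protein, passed the background threshold on 0 of 3 Ctrl arrays and was at least 3.13-fold higher in T (adjusted p = 0.000627) and at least 4.75-fold higher in M (adjusted p = 0.000275). It was tested only through T and M, where it was high, so these p-values are set against signal at background.

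In M against Ctrl 7 of those inhibitors rose and 0 fell by limma (4 at an unadjusted p under 0.05), with a median of 0.27. Of all genes 12.2% rose there and 11.1% fell. Socs3, an inhibitor of cytokine and growth factor receptors, rose there by 1.11 ± 0.18 (adjusted p = 0.00219). In M against T 6 fell and 0 rose (0 at an unadjusted p under 0.05), with a median of -0.13, where 10.8% of all genes fell and 14.7% rose. Leaving out 1 array gave 9 to 13 rises in T, 5 to 10 rises in M against Ctrl and 5 to 7 falls from T to M, and 1 gene rose from T to M without Ctrl1 or Ctrl3. Falls in M against Ctrl numbered 3 without Ctrl3 and 1 without M2, and falls in T numbered 0 without Ctrl1 or T3 and 1 without Ctrl2 or T2.

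All 24 early genes induced through Erk were tested, and 23 to 24 were above background on an array. In T 17 rose and 2 fell (17.6% and 27.1% of all genes), with a median difference of 1.14 beside -0.14 for all genes. Egr1, a zinc finger factor of the first response, was at -2.92, -2.02 and -3.53 on Ctrl, 2.10, 1.86 and 1.75 on T and -0.93, -1.67 and -0.69 on M. Each T array was above each M array and each M array above each Ctrl array. Egr1 rose by 4.72 ± 0.37 in T (limma, adjusted p = 1.47e-05) and by 1.72 ± 0.37 in M (adjusted p = 0.01, a call lost without M1 and M3 together), and fell by 3.00 ± 0.37 from T to M (adjusted p = 0.000273). Egr2 rose by 2.84 ± 0.19 in T (adjusted p = 6.23e-06) and fell by 2.35 ± 0.19 from T to M (adjusted p = 2.08e-05). Fosl1, an AP-1 subunit, rose by 2.87 ± 0.19 in T (adjusted p = 4.92e-06) and by 1.85 ± 0.19 in M (adjusted p = 8.56e-05).

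Against Ctrl, M had 11 of these early genes higher and 2 lower (12.2% and 11.1% of all genes), with a median of 0.58. From T to M 10 fell and 0 rose by limma (1 at an unadjusted p under 0.05), with a median of -0.53, while Areg rose in the same comparison. Of all genes 10.8% fell and 14.7% rose from T to M. Myc, the growth-promoting transcription factor, was at -3.41, -3.33 and -2.72 on Ctrl, 0.27, 0.46 and 0.55 on T and 0.96, 1.27 and 0.94 on M. It rose by 3.58 ± 0.21 in T (adjusted p = 2.73e-06) and by 4.21 ± 0.21 in M (adjusted p = 5.96e-07). Leaving out 1 array gave 15 to 18 rises in T and 7 to 13 falls from T to M. Rises in M against Ctrl numbered 6 without Ctrl1, 7 without Ctrl2 or M3 and 16 without Ctrl3, and 1 gene rose from T to M without Ctrl1 or Ctrl3. Falls in T numbered 0 without Ctrl1, Ctrl2, T1, T2 or T3 and 3 without Ctrl3, and falls in M against Ctrl 0 without Ctrl1, Ctrl2, M1 or M3. Under median scaling 19 rose and 0 fell in T, and under quantile normalization 14 fell from T to M.

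**Figure D3:**
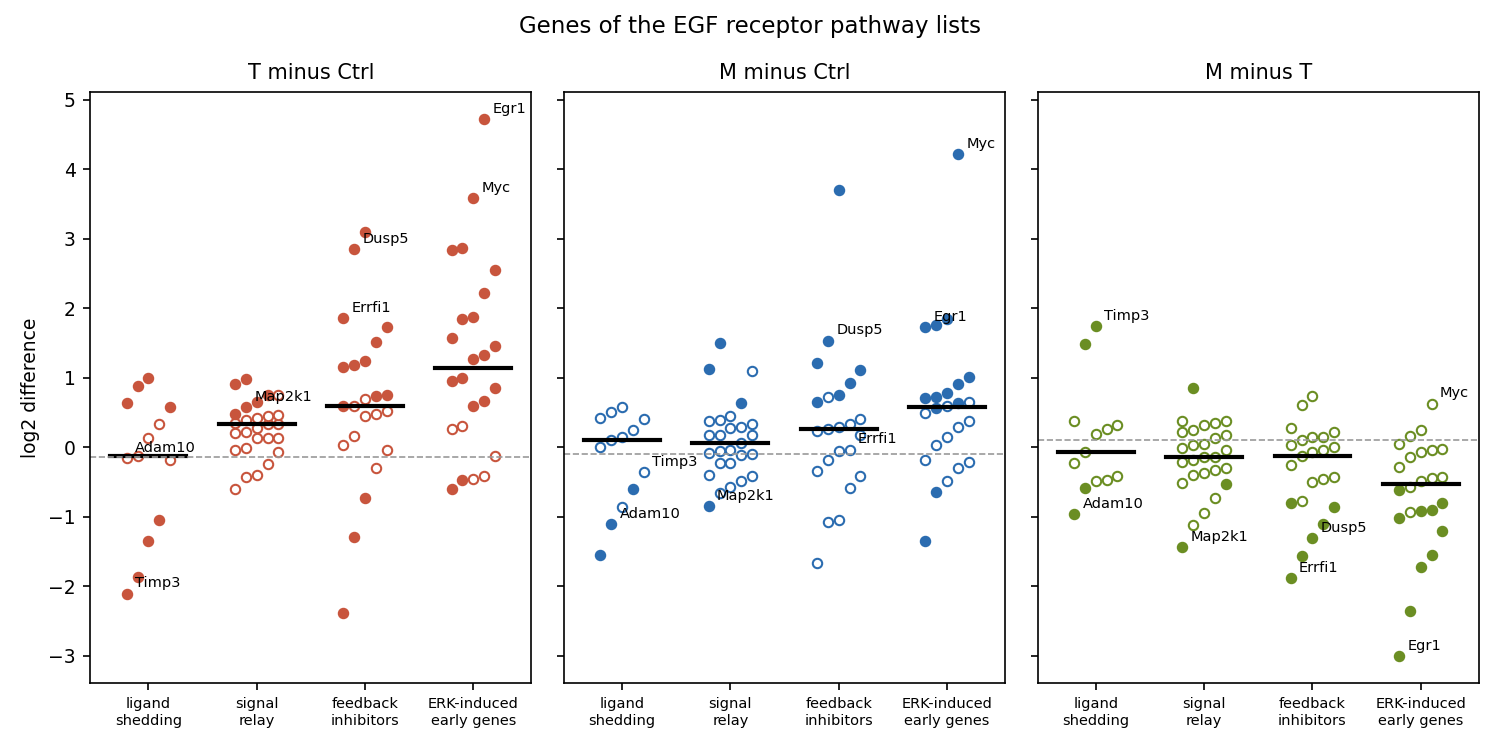
Log2 difference (vertical axis) of each tested gene in 4 pathway lists, one panel per comparison; filled points have an adjusted p under 0.05, black bars are list medians and the dashed line is the median of all genes. Early genes lie mostly above 0 in T against Ctrl (17 of 24 called higher) and below 0 in M against T (10 of 24 called lower).

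Genes whose 9-array profile lay closest to a member were found by the root mean square difference after centring each gene on its own mean. For Areg these were Pira11 (0.29 log2 units), Gm14548 (0.35), Pdpn (0.36) and S100a8 (0.37). Pdpn encodes podoplanin, a membrane glycoprotein, and S100a8 a calcium-binding protein abundant in neutrophils and in activated macrophages. Pira11 and its relatives form a family of similar sequences whose signals one probe may mix. For Hbegf they were Slc4a11 (0.12), Nol3 (0.17), Pglyrp1 (0.18) and 2810408A11Rik (0.18). For Egf they were Tcaim (0.09), Pus7l (0.10), Exoc4 (0.10) and Naa25 (0.10). The profiles share their arrays and scaling, and the nearest genes of a profile seen in many genes lie closer than those of a rarer one.

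Markers of other cells were read beside Areg and Hbegf because both are also made outside macrophages. The marker counts below stand beside 17.6% of all genes higher and 27.1% lower in T against Ctrl. For M the shares were 12.2% and 11.1% against Ctrl and 14.7% and 10.8% against T. The sort marker Ptprc (CD45) was called in M, 0.80 ± 0.20 above Ctrl (limma, adjusted p = 0.022), and Adgre1 (F4/80) rose there by 2.86 ± 0.22 (adjusted p = 1.32e-05), while neither was called in T against Ctrl (adjusted p = 0.936 and 0.747). Each array had 11 of the 12 macrophage markers above background. Their summed level, as a multiple of the 75th percentile, was 197 to 238 in Ctrl, 160 to 219 in T and 186 to 262 in M.

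Epithelial genes, which carcinoma cells could bring, were detected in 14 to 17 of 19 cases on Ctrl arrays, 14 to 16 on T arrays and 11 to 14 on M arrays. Their summed level was 3.75 to 5.88 in Ctrl, 3.40 to 3.94 in T and 2.99 to 4.39 in M, in the same unit. In T 3 rose and 6 fell, and in M against Ctrl 0 rose and 1 fell by limma (2 rises at an unadjusted p under 0.05). Krt19, a keratin gene of simple epithelia, rose by 3.63 ± 0.27 in T (adjusted p = 1.09e-05) and fell by 4.32 ± 0.27 from T to M (adjusted p = 3.89e-06), with 1 of 3 M arrays above background. The second Krt19 call was lost in the deposited value table. Elf3, another gene of this list, stood at -3.57, -3.46 and -3.11 on Ctrl, -2.09, -1.79 and -1.87 on T and -3.55, -3.49 and -3.36 on M. It fell by 1.55 ± 0.18 from T to M (limma, adjusted p = 0.000187), a call also lost in the deposited value table. From T to M 2 epithelial genes rose and 2 fell. Leaving out 1 array gave 2 to 4 rises and 2 to 3 falls there. The adhesion gene Cdh1 was above background on 0 of 3 T and 0 of 3 M arrays, and Epcam on 2 of 3 of each. The part of these cells in the Areg and Hbegf values was not tested. Without Ctrl3 the falls were 10 in T and 5 in M against Ctrl, but genes tested only then passed the filter through Ctrl1 and Ctrl2 alone. Without M2 4 fell in M against Ctrl, where 0 fell without M3 and 2 rose without M1. Median scaling gave 3 falls in T, and 2 genes rose in M against Ctrl under median scaling and 2 under quantile normalization.

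The neutrophil gene S100a8, picked above because its profile lay near that of Areg, rose by 3.06 ± 0.22 in T (limma, adjusted p = 8.17e-06). In M it rose by 4.97 ± 0.22 against Ctrl (adjusted p = 2.76e-07) and by 1.91 ± 0.22 against T (adjusted p = 0.000162). The call against T was lost in the deposited value table. Elane, another neutrophil marker, fell by 2.56 ± 0.55 in T (adjusted p = 0.00514). Of the 10 neutrophil markers 8 to 9 were above background on Ctrl arrays, 7 to 9 on T and 8 on M. Their summed level was 15.5 to 25.4 in Ctrl, 18.1 to 23.5 in T and 19.5 to 27.2 in M. Csf3r, another gene of this list, made up most of that sum on every array, at levels from 3.88 to 4.64. The sum therefore says little about the other neutrophil markers, S100a8 included. In T 1 of the neutrophil markers rose and 3 fell. In M against Ctrl 2 rose and 0 fell by limma (2 falls at an unadjusted p under 0.05, and 2 called without Ctrl3). The rises in T were 2 without M2 or M3 and 2 under quantile normalization or median scaling. From T to M 3 of the neutrophil markers rose and 0 fell by limma (0 at an unadjusted p under 0.05). The median was 0.82 there, beside 0.11 for all genes. Those rises were 2 under quantile normalization or median scaling and 1 to 3 with 1 array left out. For mast cells, a known source of Areg, 3 of 10 markers were tested, 3 to 5 being above background on Ctrl arrays, 2 on T and 1 to 3 on M, and Cpa3, a defining mast cell protease gene, was above background on no array. Their summed level was 0.22 to 0.29 in Ctrl, 0.36 to 0.38 in T and 0.17 to 0.22 in M. In T 1 rose and 2 fell. Kit, the receptor for stem cell factor, was above background on 3 of 3 Ctrl and 0 of 3 T arrays. It was at least 1.9-fold lower in T (limma, adjusted p = 0.00031). Kit was tested only because of Ctrl, where it was highest, so that p-value is set against signal at background. The chymase gene Cma1 fell by 1.21 ± 0.23 (adjusted p = 0.00312). The protease gene Tpsb2, which at a level of -1.70 made up most of the sum in T, rose by 1.54 ± 0.23 in T (adjusted p = 0.000844), a call lost with the mean of its probes, and fell by 2.25 ± 0.23 from T to M (adjusted p = 8.84e-05). Of these markers 2 fell and 0 rose in M against Ctrl by limma (0 at an unadjusted p under 0.05), with 0 falls under quantile normalization or median scaling. Without Ctrl3 4 fell in T and 3 in M. Mcpt4 and Mcpt8, tested only then, passed the filter through Ctrl1 and Ctrl2 alone. They were above background on no T or M array, so falls counted for them are no measured size. The falls in M were 1 without T1, T2 or T3 and 0 without Ctrl1, Ctrl2, M1 or M3.

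Of 12 lymphoid markers 7 to 8 were above background on Ctrl arrays, 6 to 8 on T and 5 to 7 on M, and they summed to 0.82 to 1.60 in Ctrl, 0.84 to 1.04 in T and 1.54 to 1.74 in M. Of the 8 tested, 1 rose and 5 fell in T against Ctrl, with a median of -1.09, and 2 rose and 0 fell in M by limma (3 falls at an unadjusted p under 0.05), with a median of -0.60. Gata3, a factor of helper T cells and innate lymphoid cells, rose by 1.97 ± 0.15 in M against Ctrl (adjusted p = 1.31e-05) to a level of 0.19, which is most of the sum in M. Its levels were -1.78, -1.80 and -1.74 on Ctrl and -0.61, -0.88 and -0.86 on T. It rose by 0.98 ± 0.15 from T to M (limma, adjusted p = 0.00135), a call lost in the deposited value table. Of the 8 markers 2 rose and 1 fell from T to M, with a median of 0.81. Leaving out 1 array gave 1 to 4 rises and 0 to 1 falls there. The T cell receptor component Cd3e was at -0.66, -0.99 and -3.78 on the Ctrl arrays and fell by 2.62 ± 0.65 in T (adjusted p = 0.00981). Falls in T were 3 without Ctrl2 or T3 and 3 under quantile normalization, where 3 rose, and 3 rose under median scaling. Without Ctrl3 2 rose in T and 3 fell in M, and in M 1 rose without Ctrl2 and 1 fell without M2. Mesothelial and stromal markers had 4 of 10 tested, 3 to 5 above background on an array, and summed to 0.19 to 0.34 in Ctrl, 0.16 to 0.19 in T and 0.17 to 0.26 in M, with no call in M against Ctrl or T by limma (0 at an unadjusted p under 0.05). In T 1 fell, the collagen gene Col1a2 at -0.84 ± 0.27 (adjusted p = 0.0287), and 0 rose (0 at an unadjusted p under 0.05). The falls in T were 3 without Ctrl3, 2 without M2 and 0 without Ctrl1, Ctrl2, T2 or T3, and 0 under quantile normalization or median scaling. Without Ctrl3 1 of them fell in M against Ctrl and 1 rose in M against T. What these cells add to the ligand values was not tested.

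**Figure D4:**
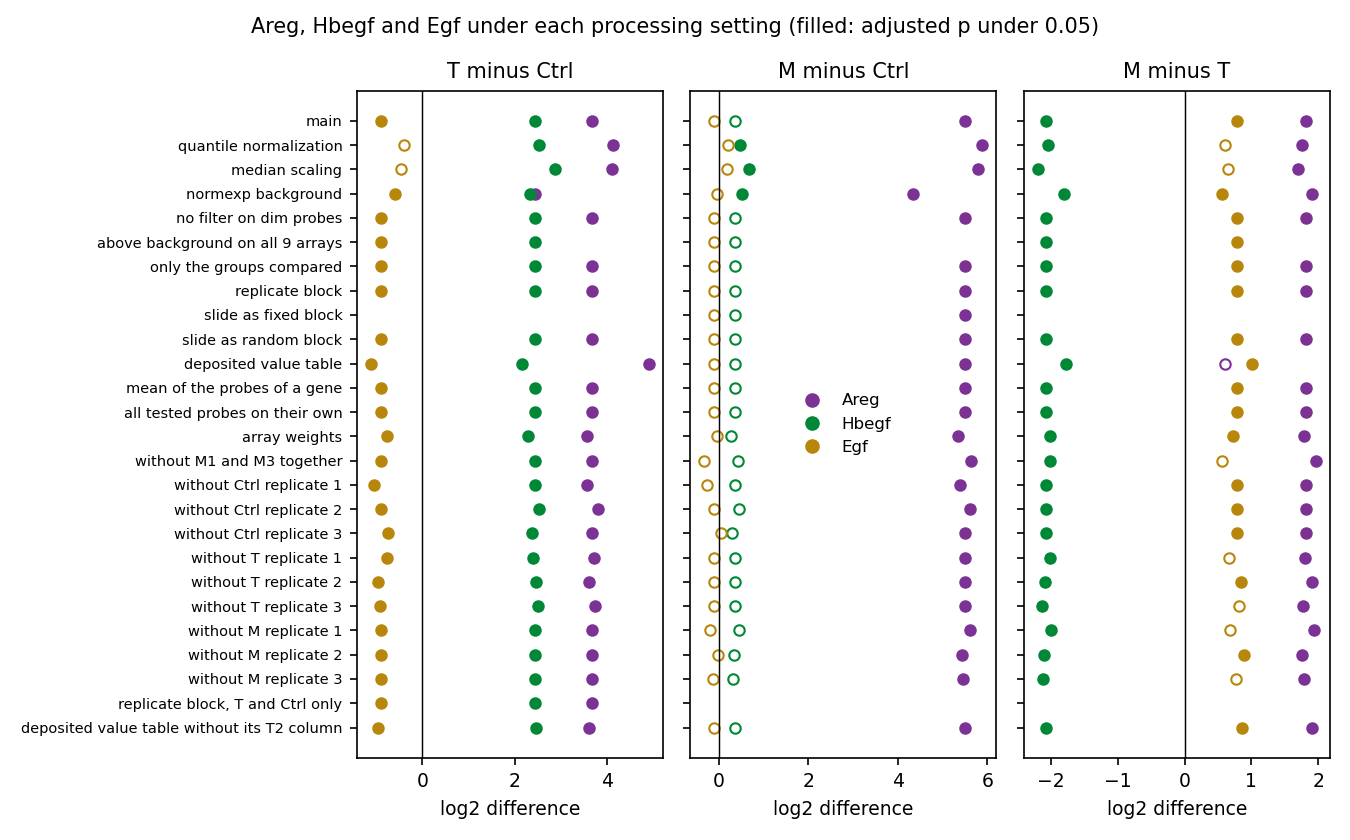
Log2 difference (horizontal axis) of Areg, Hbegf and Egf in each comparison under each processing setting (vertical axis); filled points have an adjusted p under 0.05 and a missing point means no fit. Areg and Hbegf keep their side of 0 throughout, with Areg open only for M against T in the deposited value table (0.60), while Egf loses calls under several settings.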

How the data were processed

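Total RNA of 9 samples was labelled with Cy3. Spots had been extracted by the authors in Agilent Feature Extraction (version 10.7.3.1 in the submitters' processing notes), and each deposited scanner file holds a background-subtracted signal intensity per spot, per the file headers. A deposited value table mixes log2 columns (Ctrl2, Ctrl3, T1, T2, T3, centred at the array's 75th percentile) with linear intensity columns. Within 0.001 log2 units, 8 columns equalled a scanner file (M1 and M2 each other's) and T2 none, so its scale and centring are inferred from its values. It served as an alternative. Column medians were 215, 195, 246 and 219 for Ctrl1, M1, M2 and M3, and -3.39, -3.71, -3.76, -3.93 and -4.03 for the log2 columns in the order named.

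Outlier and control spots were left out, spots of a probe averaged and the 75th percentile subtracted from log2 values. Accessions named 26762 probes, current symbols 3819 and older symbols 639 more, and 1480 kept the array's name. The brightest probe stood for a gene if well above background on all 3 arrays of a group, leaving 18096 genes. Groups were fitted together with limma 3.58.1 (R 4.3.3), with Benjamini-Hochberg adjustment over all genes and a threshold of 0.05. An SE is that of this fit. A bound ("at least") sets the bright mean against the higher of the dim probe's signal and the lowest signal well above background. The number of arrays limits the precision.

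The members and lists were chosen with earlier results of these data known. Named list genes were called, with arrays that did not overlap, largest differences first (at most 4 per pathway list and 2 per marker list and comparison). Fewer were named than this allows, and not only where calls were fragile. Left out were calls that no alternative lost, among them falls of Cd3g (-1.74) and Ocln (-1.68) and a rise of Mertk (2.74) in T. Members named by list counts of 3 or fewer, and defining markers at background, were named after their values were seen. Same-numbered Ctrl and T arrays deviated together from their group means (r = 0.55, 0.12 and 0.38), which by rule pairs them, though no label states a shared source. By the numbers of the scanner files, which the replicate block used, M arrays did not pair with either. The value table exchanges M1 and M2. With its numbers r was 0.35, 0.04 and 0.02 between M and Ctrl and 0.32, 0.06 and 0.03 between M and T. Whether M arrays pair is therefore not settled. The procedure was tested on simulated data. Alternatives were other scalings, normexp, filters, probe averaging, array weights, slide or replicate blocks, the value table and leaving out arrays. A gene tested only when 1 array was left out passed the filter through the remaining arrays of that group alone, and its call is no measured size.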

Additional observations from a re-analysis of the deposited data

How the results depend on the processing

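Areg in T and M against Ctrl kept its call in all 23 alternatives that gave a value (2.42 to 4.90 and 4.34 to 5.89), as did Hbegf in T against Ctrl in 24 (2.15 to 2.87) and in M against T in 23 (-2.19 to -1.77). Of the tested members, 2 rose in T against Ctrl, and 1 when only genes above background on all 9 arrays were kept, since Areg then left the test. The single fall became 0 with quantile normalization and 0 with median scaling, and 2 without a filter on dim probes (Tgfa, not above background in T) and 2 with the mean of a gene's probes; leaving out 1 array gave 1 to 2. The single rise in M against Ctrl became 2 with quantile normalization, median scaling or normexp, 3 without the filter (Btc and Ereg, not above background on any array) and 0 with all 9 arrays above background; the falls were 0 to 1 with 1 array left out (Tgfa, without Ctrl3). The 2 rises from T to M became 1 with quantile normalization, median scaling, all 9 arrays above background, the value table, or without M1 and M3 together, 4 without the filter, and 1 to 2 with 1 array left out. Signs turned for Egf in M against Ctrl with quantile normalization (0.20), median scaling (0.19) and without Ctrl3 (-0.26 to 0.041 with 1 array left out). They turned for Egfr in T against Ctrl with median scaling (0.33), without Ctrl1 or T2 (-0.31 to 0.099 with 1 array left out) and in the value table without its T2 column (0.039), and in M against T with the mean of probes (0.14); where no array or probe was dropped the cause was not tested.

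The replicate number as a block changed no member's call, and the block in a fit of T and Ctrl arrays only gave Areg 3.68 (adjusted p = 1.04e-05), with 3504 genes higher and 5701 lower against 3176 and 4911. That fit and the value table without its T2 column were chosen after seeing the data. The slide as a fixed block allowed only M against Ctrl, with the same values, and as a random block its correlation was set to 0. Counts over all genes moved by over 1.5 times in T against Ctrl with median scaling (5087 higher, 2608 lower) and array weights (5225 higher). In M against Ctrl that held for median scaling (1039 lower), the filter removed (3916 higher), the value table (1314 higher, 720 lower), only the 2 groups (1412 and 800) and array weights (4425 and 4826), and for M against T for median scaling (1579 higher), the value table (746 and 648), array weights (5231 and 3309) and the filter removed (5149 higher). Leaving out arrays moved them as far: in T against Ctrl 3250 and 3123 were lower without T2 or T3 and 3261 in the value table without its T2 column. In M against Ctrl 1364, 1406, 1469 and 1350 were higher and 583, 537, 538 and 498 lower without Ctrl1, Ctrl2, M1 or M3, 3880 higher and 4324 lower without Ctrl3, 1266 and 1335 lower without T2 or T3, 820 higher and 148 lower without M1 and M3 together, and 1248 lower in the value table without its T2 column. From T to M 1593, 1536 and 1755 were higher without T2, T3 or M3, 1434 higher and 1030 lower without M1 and M3 together, and 1607 and 1291 in the value table without its T2 column. Signal near background limits Tgfa, Ereg, Btc and 2 of 3 Egfr probes.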

Other observations

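In the deposited value table the T2 column set the ligands apart from the T2 scanner file in opposite directions. On the same scale it held Areg at 1.54, where T1 and T3 were at -2.34 and -2.39, and Hbegf at 0.25, where T1 and T3 were at 1.27 and 1.02. Egf was at -5.25 there, beside -4.94 and -4.64. Of its probes 0.201% lay within 0.001 log2 units of the closest scanner file, against 99.2% to 99.6% for the other columns.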
